A study of Mus musculus with 12 samples.

Results

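The Toll-like receptor genes described here are Tlr1, Tlr2, Tlr3, Tlr4, Tlr5, Tlr6, Tlr7, Tlr8, Tlr9 and Tlr13, which were taken by gene symbol from the table of read counts of epididymal white adipose tissue (eWAT; the labels say white adipose tissue). They are 10 of the 49315 genes in the table, and all 10 passed the filter on low counts that left 18702 genes for testing. RNA was sequenced from 12 mice, with 1 library per mouse and 3 mice in each of 4 groups. Mice carrying miR-181a2b2flox/flox (flox) were the controls of miR-181a2b2-/- (KO) mice, which lack Mir181a-2 and Mir181b-2 in all tissues. All mice ate a high fat diet (60% fat) over 12 weeks and were injected intraperitoneally each week with vehicle or with methotrexate (MTX) at 1 mg/kg. The groups are called flox vehicle, KO vehicle, flox MTX and KO MTX, and libraries carry the replicate number of their label. The deletion is not restricted to a cell type, the mice are given as male in the methods, and no age is used here. Counted reads ranged from 19495310 to 23976469 per library (median 21824170), so a count of 0 allows up to 0.125 to 0.154 CPM (counts per 1000000 counts of the library), a limit that covers counting error only.

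Toll-like receptors recognise conserved microbial molecules and some nucleic acids released by damaged cells. Tlr2 pairs with Tlr1 or Tlr6 at the cell surface to bind bacterial lipopeptides, Tlr4 responds to lipopolysaccharide together with Ly96 and Cd14, and Tlr5 responds to flagellin. Tlr3, Tlr7, Tlr8, Tlr9 and Tlr13 work in endosomes, where Tlr3 binds double-stranded RNA, Tlr7 single-stranded RNA, Tlr9 DNA with unmethylated CpG and Tlr13 bacterial ribosomal RNA. The ligands of mouse Tlr8 are less clear. Most of these receptors signal through the adaptor Myd88, Tlr3 signals through Ticam1, and Tlr4 uses both. In adipose tissue they are known mainly from macrophages, and fat cells also carry some of them.

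The microRNAs of the deleted locus and the places where their seed letters occur in the receptors are shown first. The genotype removes Mir181a-2 and Mir181b-2. The paper states that Mir181b also comes from the Mir181a-1/Mir181b-1 cluster, which lies outside this deletion, so mature forms may remain in KO mice. The mature forms from RefSeq (GRCm38.p6, chromosome 2, plus strand) are printed with the seed, bases 2 to 8, in capitals. Both carry the same seed.
mmu-miR-181a-5p, chr2:38852741-38852763: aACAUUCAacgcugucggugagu
mmu-miR-181b-5p, chr2:38853845-38853868: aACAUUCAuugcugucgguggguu
The letters TGAATGT, which pair with that seed, occurred in the longest annotated 3′ untranslated region of 3430 of 20985 genes (16.35%), and among the receptors in those of Tlr13 and Tlr4. The other 8 receptors held no such letters there. The 3 stretches, with the seed match in capitals, read 5′ to 3′ on the transcript strand (GRCm38).
Tlr13, chrX:106159652-106159674 (+): ccaaacccggctgcaTGAATGTt
Tlr4, chr4:66842185-66842207 (+): ttgtcatattgtcacTGAATGTc
Tlr4, chr4:66842504-66842526 (+): gccttgtgagatggaTGAATGTt
A match of letters is a description and not a site of action. The precursors had 0 counts in every library apart from flox MTX replicate 4, where Mir181a-2 had 2, so the deletion could not be checked at this depth.

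The receptors lie on 7 chromosomes (GRCm38, GENCODE M21), and all are protein coding. Tlr1 (chromosome 5, 64924679 to 64933563, minus strand) and Tlr6 (64952031 to 64960097, minus strand) are neighbours, and Tlr8 (chromosome X, 167242696 to 167264329, minus strand) lies next to Tlr7 (167304929 to 167330558, minus strand). Tlr13 is elsewhere on chromosome X (106143204 to 106160493, plus strand). Tlr2 is on chromosome 3 (83836272 to 83841767, minus strand), Tlr4 on chromosome 4 (66827584 to 66930284, plus strand) and Tlr9 on chromosome 9 (106222598 to 106226883, plus strand). Tlr5 is on chromosome 1 (182954788 to 182976044, plus strand) and Tlr3 on chromosome 8 (45395665 to 45411080, minus strand). Tlr1 and Tlr6 are close copies: 8.57% of the runs of 100 bases in Tlr1 transcripts also occur in Tlr6 transcripts, and how the authors counted reads that map to both is not stated, so their counts may be partly shared. No other pair of the 10 shared such a run. The antisense gene Gm45542 overlaps exons of Tlr3, but it had 0 to 2 counts per library.

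Promoter windows of 300 bases (250 before and 50 after a RefSeq start, GRCm38.p6) were held for 8 of the receptors, Tlr1 and Tlr6 with a pair of starts each. Tlr4 and Tlr7 had none. All windows of the receptors called in the first comparison below (Tlr1, Tlr2, Tlr6, Tlr8 and Tlr13) and that of Tlr3, which was not called, are shown on the transcript strand. Capitals mark GAGGAA, the core of the motif of the myeloid factor PU.1, and TTGCNNAA, a C/EBP motif, both searched on either strand.
Tlr1, chr5:64933509-64933808 (-): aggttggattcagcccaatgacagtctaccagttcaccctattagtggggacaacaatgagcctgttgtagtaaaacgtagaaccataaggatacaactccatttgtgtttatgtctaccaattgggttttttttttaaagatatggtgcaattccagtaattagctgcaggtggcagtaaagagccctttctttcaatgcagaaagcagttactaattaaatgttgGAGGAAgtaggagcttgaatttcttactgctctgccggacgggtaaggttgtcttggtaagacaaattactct
Tlr1, chr5:64932650-64932949 (-): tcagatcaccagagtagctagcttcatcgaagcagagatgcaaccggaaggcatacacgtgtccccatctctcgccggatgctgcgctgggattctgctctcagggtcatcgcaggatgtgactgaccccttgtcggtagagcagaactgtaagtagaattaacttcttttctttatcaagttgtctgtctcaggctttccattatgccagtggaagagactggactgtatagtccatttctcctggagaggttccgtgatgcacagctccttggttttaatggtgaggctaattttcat
Tlr2, chr3:83841559-83841858 (-): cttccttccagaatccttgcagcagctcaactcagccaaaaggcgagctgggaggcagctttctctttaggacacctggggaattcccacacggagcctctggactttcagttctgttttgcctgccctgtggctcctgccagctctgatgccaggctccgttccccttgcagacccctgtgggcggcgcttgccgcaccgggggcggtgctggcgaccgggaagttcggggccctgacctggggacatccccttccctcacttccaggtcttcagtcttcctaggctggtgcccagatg
Tlr6, chr5:64959117-64959416 (-): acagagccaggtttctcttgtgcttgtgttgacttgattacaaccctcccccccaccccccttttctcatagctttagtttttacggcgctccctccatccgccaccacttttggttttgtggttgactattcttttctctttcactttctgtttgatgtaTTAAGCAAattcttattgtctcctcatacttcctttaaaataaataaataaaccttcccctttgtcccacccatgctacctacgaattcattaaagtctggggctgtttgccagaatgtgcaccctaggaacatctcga
Tlr6, chr5:64959999-64960298 (-): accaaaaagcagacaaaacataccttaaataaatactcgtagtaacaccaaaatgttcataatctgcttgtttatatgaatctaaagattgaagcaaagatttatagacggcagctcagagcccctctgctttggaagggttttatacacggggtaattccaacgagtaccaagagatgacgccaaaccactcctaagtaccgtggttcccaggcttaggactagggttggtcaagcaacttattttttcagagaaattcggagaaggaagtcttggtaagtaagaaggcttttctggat
Tlr8, chrX:167264280-167264579 (-): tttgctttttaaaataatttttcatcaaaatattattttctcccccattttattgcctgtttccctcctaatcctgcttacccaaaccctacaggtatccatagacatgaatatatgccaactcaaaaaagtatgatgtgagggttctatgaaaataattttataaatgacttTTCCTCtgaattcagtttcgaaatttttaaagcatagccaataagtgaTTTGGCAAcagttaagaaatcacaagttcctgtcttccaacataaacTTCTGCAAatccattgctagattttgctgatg
Tlr13, chrX:106143025-106143324 (+): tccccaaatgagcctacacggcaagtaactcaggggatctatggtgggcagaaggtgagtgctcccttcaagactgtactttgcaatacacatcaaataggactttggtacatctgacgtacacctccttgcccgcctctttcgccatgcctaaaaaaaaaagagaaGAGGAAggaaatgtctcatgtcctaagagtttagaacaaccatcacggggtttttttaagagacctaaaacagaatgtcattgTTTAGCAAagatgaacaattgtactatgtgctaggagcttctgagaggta
Tlr3, chr8:45410331-45410630 (-): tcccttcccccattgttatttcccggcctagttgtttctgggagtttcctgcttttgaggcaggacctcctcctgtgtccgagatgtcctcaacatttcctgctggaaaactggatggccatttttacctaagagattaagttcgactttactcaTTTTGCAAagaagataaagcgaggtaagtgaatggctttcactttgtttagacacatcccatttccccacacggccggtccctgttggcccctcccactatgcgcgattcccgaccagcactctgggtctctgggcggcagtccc
GAGGAA occurred in the windows of Tlr1 (the first shown), Tlr8, Tlr9 and Tlr13, not in those of Tlr2, Tlr3, Tlr5 and Tlr6 or the other of Tlr1, and in 28.28% of all 32851 windows. Its longer form GAGGAAGT, which overlaps it, occurred in Tlr1 and Tlr9 and in 3.2% of all windows. TTGCNNAA occurred in Tlr3, Tlr6, Tlr8 and Tlr13 and in 10.8% of all windows. The motif of interferon regulatory factors was found in Tlr6 (3.44% of all windows), the AP-1 motif TGANTCA in Tlr9 (7.81%), a loose NF-κB motif in Tlr2, Tlr3, Tlr5 and Tlr6 (50.79%) and TATAAA in Tlr6 and Tlr8 (13.62%).

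Before the receptors are compared, 3 features of the libraries need to be known. The labelled tissue was present, since the 10 adipocyte markers summed to 10266 to 37736 CPM of all counts. Sums of 12 epididymis markers were 7054 CPM (replicate 1), 20276 CPM (replicate 3) and 2407 CPM (replicate 4) in flox vehicle, with 699 CPM in replicate 1 of flox MTX and at most 20.8 CPM in 8 other libraries, and the 8 testis germ cell markers gave 192 to 568 CPM in flox vehicle and at most 11.5 CPM elsewhere. Every comparison with flox vehicle holds this difference, and those with flox MTX hold the epididymis transcripts of its replicate 1. The 18 macrophage markers summed to 756 to 1422 CPM in flox vehicle, 5344 to 9690 in KO vehicle and 7710 to 13383 in KO MTX, while flox MTX replicates 1, 2 and 4 stood at 3241, 6770 and 968 CPM. The last of these libraries, flox MTX replicate 4, stands apart from its group in the receptors too. In bulk tissue, more cells of a type and more RNA per cell cannot be told apart.

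In KO mice given vehicle, 7 of the 10 receptors were higher than in flox mice given vehicle, by 2.23-fold for Tlr4 to 14.0-fold for Tlr13. This comparison asks what loss of Mir181a-2 and Mir181b-2 does in obese fat without the drug. A gene was called when its adjusted p in edgeR's quasi-likelihood test was below 0.1 and its fold change at least 1.5, and 31.7% of all genes tested were called in this comparison, 13.9% as higher in KO mice. No receptor was called lower. The median log2 fold change was 1.90 over the 10 receptors and -0.056 over all genes tested. The libraries of the 2 groups did not overlap for 8 receptors that were higher and for Tlr5, which was lower in KO mice, against 22.8% and 25.2% of all genes.

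**Figure D1:**
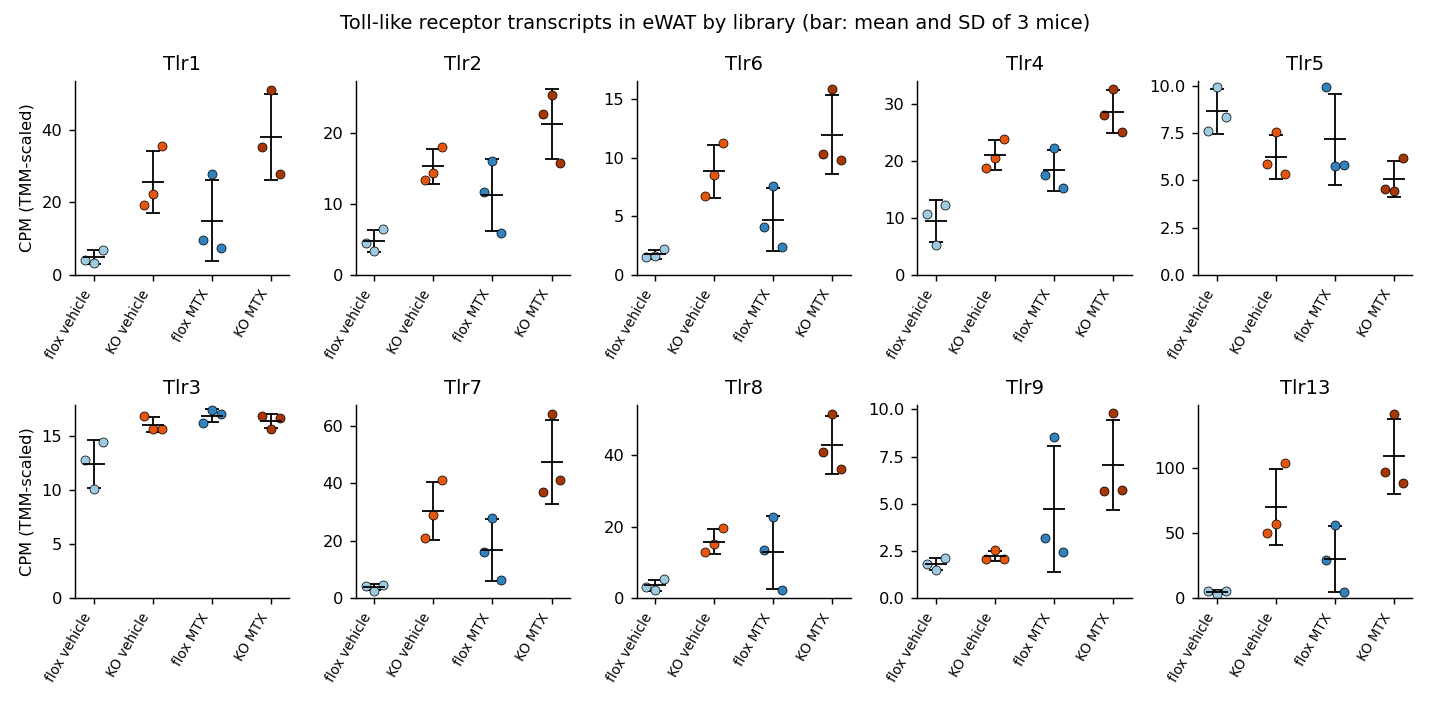
TMM-scaled CPM (linear axis from 0) of each receptor in the 12 libraries, with points for mice and bars for the mean and SD of 3 mice per group. Tlr13 reached 50.2 to 103 CPM in KO vehicle against 3.65 to 5.99 in flox vehicle, flox MTX replicate 4 lay near the flox vehicle libraries for most receptors, and Tlr5 had its lowest mean in KO MTX.

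Among the surface receptors for lipopeptides, Tlr2 stood at 4.46, 3.41 and 6.45 CPM in flox vehicle and at 13.4, 14.4 and 18.1 CPM in KO vehicle. Every KO library was above every flox library, with a log2 fold change of 1.68 (SE 0.36, adjusted p = 0.00628, edgeR). Its partner Tlr1 stood at 4.16, 3.26 and 6.96 CPM in flox vehicle and at 19.1, 22.4 and 35.4 CPM in KO vehicle. Here too the groups were apart, and the log2 fold change was 2.42 (SE 0.51, adjusted p = 0.00592, edgeR). The other partner, Tlr6, was the scarcest of the 3, with 1.52, 1.57 and 2.21 CPM in flox vehicle and 6.75, 8.504 and 11.3 CPM in KO vehicle. Its libraries did not overlap and its log2 fold change of 2.32 (SE 0.41, adjusted p = 0.00375, edgeR) was close to that of Tlr1.

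Tlr4, the receptor for lipopolysaccharide, stood at 10.7, 5.22 and 12.3 CPM in flox vehicle and at 18.7, 20.4 and 23.9 CPM in KO vehicle. It was the least changed of the 7, with separate libraries and a log2 fold change of 1.16 (SE 0.28, adjusted p = 0.0106, edgeR). Tlr5, the receptor for flagellin, went the other way, at 7.63, 9.96 and 8.34 CPM in flox vehicle and 5.84, 7.57 and 5.34 CPM in KO vehicle. The groups were separate by a narrow gap, and the log2 fold change of -0.47 (SE 0.27, adjusted p = 0.209, edgeR) did not pass the limit. Over the 12 libraries Tlr5 had a Pearson r of 0.79 with the epididymis markers, against -0.87 (Tlr4) to -0.64 (Tlr9) for the other receptors. Flox MTX replicate 1, with 699 CPM of epididymis markers, had Tlr5 at 9.96 CPM. In flox vehicle, Tlr5 was 8.34 CPM in replicate 4, with an epididymis sum of 2407 CPM, and 7.63 CPM in replicate 1, with 7054 CPM. KO vehicle replicate 2 had Tlr5 at 7.57 CPM, and epididymis markers summed to at most 18.7 CPM in KO vehicle. The part of the epididymis transcripts in the level of Tlr5 was not tested.

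The largest differences were those of Tlr13 and Tlr7, which are endosomal, while Tlr8, also endosomal, changed less than Tlr1 and Tlr6. Tlr13 stood at 5.42, 3.65 and 5.99 CPM in flox vehicle and at 50.2, 57.0 and 103 CPM in KO vehicle. The lowest KO library was far above the highest flox library, with a log2 fold change of 3.81 (SE 0.68, adjusted p = 0.00379, edgeR). Tlr7, which senses single-stranded RNA, stood at 4.42, 2.63 and 4.66 CPM in flox vehicle and at 21.1, 29.0 and 41.2 CPM in KO vehicle. Its groups were also apart, with a log2 fold change of 2.96 (SE 0.49, adjusted p = 0.00335, edgeR). Its neighbour Tlr8 stood at 3.16, 2.39 and 5.39 CPM in flox vehicle and at 12.9, 15.02 and 19.6 CPM in KO vehicle. Its log2 fold change was 2.12 (SE 0.60, adjusted p = 0.0214, edgeR), with no overlap.

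Tlr3 and Tlr9, also endosomal, did not pass both limits. Tlr3 stood at 12.8, 10.1 and 14.4 CPM in flox vehicle and at 16.9, 15.7 and 15.6 CPM in KO vehicle. Its adjusted p was 0.0884 (edgeR) with a log2 fold change of 0.37 (SE 0.15), below the fold limit, although the libraries did not overlap. Tlr9 stood at 1.82, 1.53 and 2.12 CPM in flox vehicle and at 2.11, 2.54 and 2.11 CPM in KO vehicle. These levels overlapped, and the log2 fold change was 0.31 (SE 0.44, adjusted p = 0.638, edgeR).

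The 7 calls remained when any of the 12 libraries was left out. With flox vehicle replicates 1 and 3, the libraries with the highest epididymis sums, both left out, the 7 had log2 fold changes of 0.78 to 3.55 in the same direction but none was called, the lowest adjusted p in edgeR was 0.103 (Tlr7, from 4.15e-08 to 0.103 over the alternatives), 6 of the 10 receptors had an unadjusted p below 0.05, and 7.07% of all genes were called. In that fit flox vehicle is 1 mouse, assumed to vary like the other groups. Of the macrophage markers, 15 of 18 were called higher in KO vehicle and none was at 0 in all libraries of a group. Also called higher were 7 of 7 fibroblast, 6 of 8 endothelial, 5 of 6 mast cell and 4 of 6 conventional dendritic cell markers tested. Of the T cell, plasmacytoid and neutrophil markers tested, 1 of 8, 1 of 5 and 1 of 6 were called higher. These counts are near the share of all genes, 13.9%. No B cell, mesothelium or adipocyte marker was called higher, and 2 neutrophil and 2 adipocyte markers were called lower. The neutrophil markers called lower were Ltf, with means of 270 CPM in flox vehicle and 0.717 CPM in KO vehicle, and Elane, with 0.871 and 0.159 CPM. The part of these cell types in the result was not tested.

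In flox mice, MTX was compared with vehicle to see what the drug does where Mir181a-2 and Mir181b-2 are present. Here 8 of the 10 receptors were called higher with MTX, from 1.95-fold for Tlr4 to 6.02-fold for Tlr13, in a comparison that called 24.2% of all genes and 8.09% as higher. The same 7 receptors as above and Tlr9 were called. The median log2 fold change was 1.40 over the receptors and 0.051 over all genes. Both comparisons share the flox vehicle libraries.

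The 3 MTX libraries were spread widely, and replicate 4 was the lowest of them for all 8 receptors called. Tlr13 stood at 29.2, 56.0 and 5.12 CPM in flox MTX replicates 1, 2 and 4. The last value lies within the vehicle libraries, so that the groups overlapped despite a log2 fold change of 2.59 (SE 0.65, adjusted p = 0.0207, edgeR). Tlr7 stood at 16.2, 27.9 and 6.25 CPM, all above vehicle (log2 fold change 2.11, SE 0.48, adjusted p = 0.0145, edgeR). Tlr8 stood at 13.5, 22.7 and 2.44 CPM, with replicate 4 down among the vehicle libraries (log2 fold change 1.83, SE 0.59, adjusted p = 0.0525, edgeR).

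Tlr1 stood at 9.68, 27.8 and 7.25 CPM in the same libraries, just above the highest vehicle library, with a log2 fold change of 1.64 (SE 0.50, adjusted p = 0.0414, edgeR). Tlr6 stood at 4.11, 7.63 and 2.37 CPM, also just clear of vehicle, with a log2 fold change of 1.42 (SE 0.41, adjusted p = 0.0338, edgeR). Tlr2 stood at 11.7, 16.0 and 5.87 CPM and overlapped with vehicle, with a log2 fold change of 1.23 (SE 0.35, adjusted p = 0.0344, edgeR). For the lipopeptide receptors the drug groups thus came close to, or ran into, the vehicle range through 1 mouse. Tlr4 was steadier at 17.5, 22.3 and 15.2 CPM, clear of vehicle, with a log2 fold change of 0.96 (SE 0.28, adjusted p = 0.0349, edgeR).

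Tlr9, the DNA sensor, stood at 3.21, 8.53 and 2.44 CPM in flox MTX, with replicate 2 well above the others and all 3 above vehicle. Its log2 fold change was 1.38 (SE 0.44, adjusted p = 0.0508, edgeR). Tlr3 stood at 16.2, 17.4 and 17.0 CPM, close together and above vehicle, and its log2 fold change of 0.44 (SE 0.15, adjusted p = 0.0623, edgeR) was under the fold limit. Tlr5 stood at 9.96, 5.77 and 5.81 CPM, overlapping vehicle, with a log2 fold change of -0.27 (SE 0.27, adjusted p = 0.501, edgeR).

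The MTX result rested on more libraries than the genotype result. Without flox vehicle replicate 3 it called 3 receptors, and without flox vehicle replicate 1 or flox MTX replicate 2 it called 5. With flox vehicle replicates 1 and 3 both left out it called none, 1 receptor had an unadjusted p below 0.05 and 2.9% of all genes were called, while the median log2 fold change of the receptors was 1.10. With the fit limited to the 6 libraries compared 2 receptors were called, and with a limit of 1.5 on the log2 scale 4 were. The share of all genes called is not given for these counts or for those without 1 library. The libraries did not overlap for 6 receptors, all higher with MTX (10.9% of all genes), and for 1 when library size was the only scaling, which shifts the median of all genes to -0.15. Macrophage markers moved with the receptors here too (15 of 18 called higher). Also called higher were 5 of 8 B cell, 5 of 8 T cell, 4 of 7 fibroblast and 4 of 5 mesothelium markers tested. So were 2 of 6 conventional dendritic cell, 1 of 5 plasmacytoid and 4 of 6 neutrophil markers, against 8.09% of all genes. In addition 1 neutrophil marker, Ltf, was called lower, with means of 20.4 CPM in flox MTX and 270 CPM in flox vehicle. No adipocyte, endothelial or mast cell marker was called, and the part of these cell types was not tested.

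**Figure D2:**
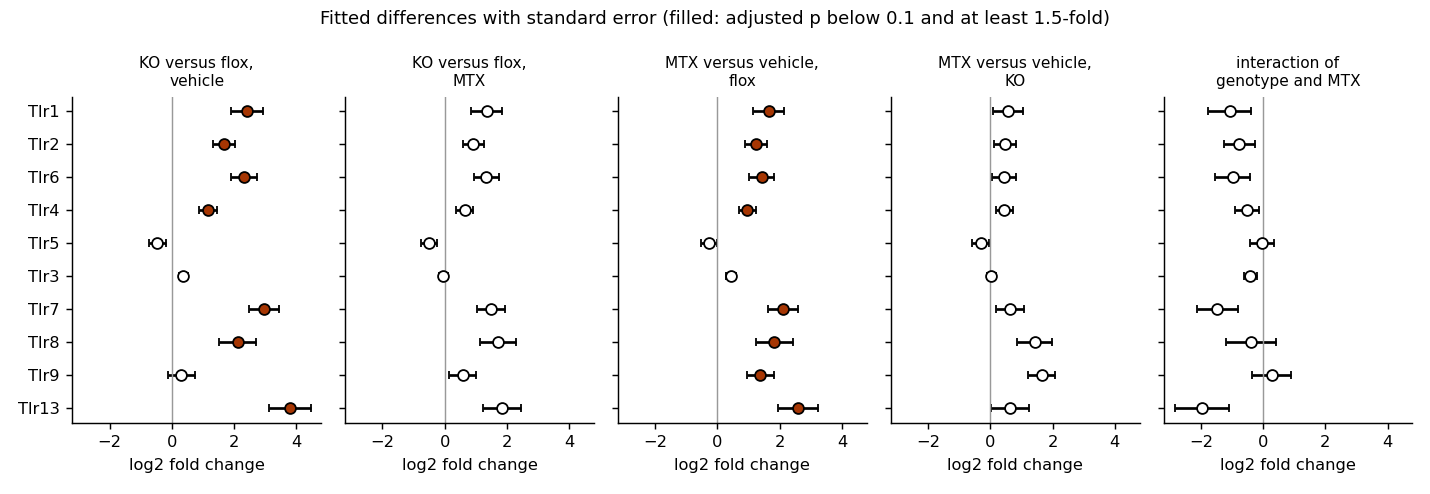
Log2 fold changes of the receptors (points) with standard errors (bars) in the 5 comparisons, filled where the adjusted p was below 0.1 and the fold change at least 1.5. There are 7 filled points for KO against flox under vehicle, 8 for MTX against vehicle in flox mice and none in the other 3 panels.

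Among mice given MTX, KO and flox mice were compared to see whether the genotypes differ under the drug. The KO means were higher for 8 of the 10 receptors, but none was called, and no gene in the whole table was (0% called). An unadjusted p below 0.05 was found for 7 receptors, against 24.5% of all genes, and DESeq2 called 6 receptors, Tlr1, Tlr2, Tlr6, Tlr7, Tlr8 and Tlr13, against 14.8% of all genes. Tlr13 stood at 96.5, 141 and 88.4 CPM in KO MTX replicates 2, 3 and 4. These are all above the 3 flox MTX libraries, and the log2 fold change was 1.85 (SE 0.62, adjusted p = 0.123, edgeR). Tlr8 stood at 40.7, 51.4 and 35.9 CPM in KO MTX, and Tlr7 at 36.9, 64.2 and 41.0 CPM. Both were clear of flox MTX, with log2 fold changes of 1.72 (SE 0.57, adjusted p = 0.123, edgeR) for Tlr8 and 1.49 (SE 0.46, adjusted p = 0.115, edgeR) for Tlr7.

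Tlr1 stood at 35.2, 51.0 and 27.8 CPM in KO MTX, Tlr2 at 22.7, 25.3 and 15.8 CPM and Tlr6 at 10.3, 15.8 and 9.78 CPM. Of these, Tlr6 alone was clear of flox MTX, and the log2 fold changes of 1.34, 0.92 and 1.34 had adjusted p of 0.137, 0.147 and 0.110 (edgeR). Tlr4 stood at 28.04, 32.6 and 25.2 CPM, above every flox MTX library, with a log2 fold change of 0.64 (SE 0.27, adjusted p = 0.185, edgeR). Tlr9 stood at 5.69, 9.83 and 5.72 CPM and overlapped with flox MTX (log2 fold change 0.58, adjusted p = 0.422, edgeR).

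Tlr3, at 16.8, 15.6 and 16.6 CPM in KO MTX, was level with flox MTX (log2 fold change -0.04, SE 0.15, adjusted p = 0.880, edgeR; the sign turned with library size as the only scaling, 0.12). Tlr5 stood at 4.56, 4.46 and 6.16 CPM, with a log2 fold change of -0.51 (SE 0.27, adjusted p = 0.267, edgeR). In all, 5 receptors were higher without overlap, against 14.8% of all genes. Of the macrophage markers 12 of 18 had an unadjusted p below 0.05 and none was called. An unadjusted p below 0.05 was also found for 5 of 6 mast cell markers, all with positive log2 fold changes, and for 7 of 10 adipocyte markers, all 10 of them with negative log2 fold changes (median -1.22). It was found for 5 of 6 neutrophil and 3 of 5 mesothelium markers too, with median log2 fold changes of -3.58 and -0.86. The same held for 6 of 9 epididymis markers tested, at a median of -5.37, and for 3 of 8 endothelial markers, at 0.61. The part of these cell types and of the epididymis transcripts was not tested. The median log2 fold change was 1.13 over the receptors and -0.045 over all genes. Without flox MTX replicate 2, 8 receptors were called higher, and without flox vehicle replicate 3 1 was called. The share of all genes called in those fits is not given here.

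In KO mice, MTX was compared with vehicle to see what the drug does where Mir181a-2 and Mir181b-2 are lost. None of the receptors was called, and again no gene in the table was (0% called). An unadjusted p below 0.05 was found for Tlr9 and Tlr8, against 7.97% of all genes, and DESeq2 called Tlr9 (adjusted p = 0.0276, from 0.0276 to 1.0 over the alternatives) and 1.5% of all genes. Tlr9 was 5.69 to 9.83 CPM with MTX and 2.11 to 2.54 CPM with vehicle, without overlap, at a log2 fold change of 1.65 (SE 0.44, adjusted p = 0.346, edgeR). Tlr8 was 35.9 to 51.4 CPM with MTX and 12.9 to 19.6 CPM with vehicle, also without overlap, at 1.43 (SE 0.57, adjusted p = 0.551, edgeR). Tlr4 was the third receptor without overlap, at 0.44 (SE 0.27, adjusted p = 0.740, edgeR), and 11.2% of all genes were higher with MTX in that way.

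For the other receptors the KO MTX and KO vehicle libraries overlapped. Tlr13 differed by 0.63 (SE 0.60, adjusted p = 0.835, edgeR) and Tlr7 by 0.64 (SE 0.45, adjusted p = 0.785, edgeR) on the log2 scale. The median log2 fold change of the receptors was 0.52, against -0.011 over all genes.

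The response to MTX in KO mice minus that in flox mice was tested as the interaction, for which 0.989% of all genes were called and no receptor was. It was below 0 for 9 receptors (8 with library size as the only scaling, where Tlr5 turned to 0.15), and the unadjusted p was below 0.05 for Tlr13 and Tlr7, against 15% of all genes, while DESeq2 called no receptor and 6.67% of all genes. The interaction was -1.96 for Tlr13 (SE 0.87, adjusted p = 0.321, edgeR) and -1.47 for Tlr7 (SE 0.65, adjusted p = 0.322, edgeR) on the log2 scale. Without flox MTX replicate 4, Tlr13 was called, at -2.47 (adjusted p = 0.0997, edgeR, from 0.0997 to 0.932 over the alternatives). A response to the drug in flox mice that differs from the response in KO mice was therefore not shown for any receptor with the 12 libraries.

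By group mean, Tlr1, Tlr2, Tlr4, Tlr6, Tlr7, Tlr8 and Tlr13 followed a single order, with flox vehicle lowest, then flox MTX, KO vehicle and KO MTX. Neighbours in this order mostly overlapped. The libraries of flox vehicle and flox MTX were apart for Tlr1, Tlr4, Tlr6 and Tlr7, those of flox MTX and KO vehicle for none of the 7, and those of KO vehicle and KO MTX for Tlr4 and Tlr8. Tlr9 had another order, with flox vehicle and KO vehicle lowest and both MTX groups above, and neighbours overlapped throughout. Tlr3 was lowest in flox vehicle and level in the other 3 groups, and Tlr5 had its highest mean in flox vehicle, then flox MTX, KO vehicle and KO MTX, with overlap at each step.

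Receptors can be compared with each other only per length, as CPM per kilobase of exon. On that scale Tlr3 had the highest mean level in flox vehicle, at 2.39 ± 0.42 (SD, n = 3), followed by Tlr5 at 1.80 ± 0.25, and Tlr13 was the sixth at 1.17 ± 0.28. In KO vehicle Tlr13 led with 16.3 ± 6.7 (SD, n = 3), ahead of Tlr1 at 7.66 ± 2.6, while Tlr3 was seventh at 3.08 ± 0.14. Tlr13 also led in flox MTX, at 6.99 ± 5.9, and in KO MTX, at 25.3 ± 6.6. The summed level of the 10 receptors was 10.1 to 16.2 in flox vehicle, 40.9 to 68.2 in KO vehicle, 16.1 to 52.9 in flox MTX and 67.4 to 103 in KO MTX.

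As a share of that sum, Tlr13 took 8.41% to 9.79% in flox vehicle, 28.01% to 35.2% in KO vehicle and 30.1% to 31.8% in KO MTX. In flox MTX it took 24.6% in replicate 2 but 7.41% in replicate 4. The share of Tlr3 went from 17.1% to 19.2% in flox vehicle to 4.39% to 7.92% in KO vehicle, and was 20.3% in flox MTX replicate 4. Tlr8 took 8.003% to 8.86% in KO vehicle and 13.9% to 15.2% in KO MTX, without overlap. In flox MTX replicate 4 the share of Tlr8 was 4.23%, below all other libraries.

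**Figure D3:**
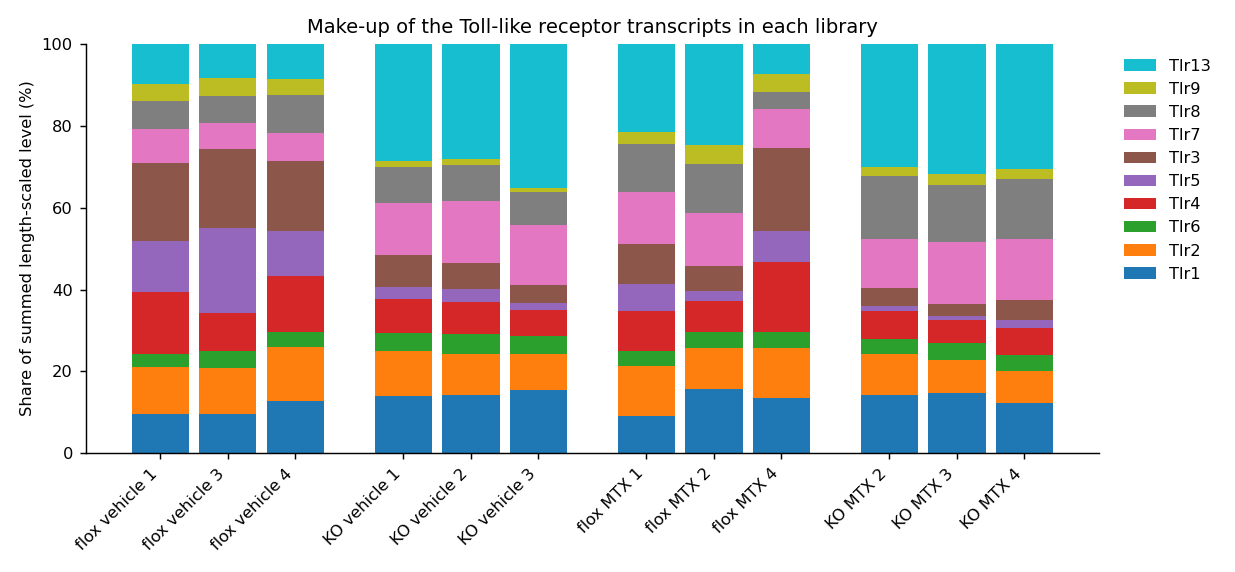
Share (%) of each receptor in the summed CPM per kilobase of the 10 receptors, with 1 bar per library and the bars grouped by genotype and treatment. Tlr13 takes 28.01% to 35.2% in KO vehicle and at most 9.79% in flox vehicle, and Tlr3 takes 17.1% to 19.2% in flox vehicle.

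Over the 12 libraries, the log2 levels of the 7 receptors called in KO vehicle moved together, with Pearson r between 0.89 and 0.99 in their 21 pairs. Tlr9 had r of 0.68 to 0.79 and Tlr3 of 0.61 to 0.85 with the 7, and Tlr5 had r of -0.78 to -0.63. These values describe 12 points that fall into the 4 groups and carry the same difference between them, and are given without a test. The genes most like each receptor were taken by the same measure. For Tlr13 they were Ctss, Fcgr1 and C3ar1 (r of 0.998, 0.998 and 0.997), for Tlr8 Adgre1, Rassf4 and Pik3ap1 (0.995, 0.989 and 0.987) and for Tlr7 Ms4a6d and C1qc (both 0.994).

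The surface receptors had close company as well. Tlr1 was most like Arhgap30, Syk and Btk (r of 0.997, 0.994 and 0.993), Tlr2 like Lyz2, Arhgap9 and Unc93b1 (0.996, 0.994 and 0.994), Tlr6 like Myo1g, Fmnl1 and Kcnk6 (0.996, 0.996 and 0.995) and Tlr4 like Myo5a, Selenon and Kctd12b (0.993, 0.989 and 0.988). Tlr9 was most like Mir142b, Stk17b and St6gal1 (0.956, 0.946 and 0.944), Tlr3 like 1110046J04Rik, Crtap and Slc8b1 (0.956, 0.954 and 0.951) and Tlr5 like Dnajc6, Lrrc9 and Fgf12 (0.941, 0.921 and 0.914). Adgre1, Fcgr1, Lyz2 and C1qc are themselves in the macrophage list.

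The receptors were also counted per 1000 counts of the 18 macrophage markers in the same library, a ratio that the scaling between libraries does not touch. On this measure 8 receptors were lower in KO vehicle than in flox vehicle, all without overlap, as were 95.3% of all genes tested, since the marker sum itself was higher in KO vehicle. The median log2 difference was -0.82 over the receptors and -2.80 over all genes. Tlr7 and Tlr13 were not lower. Tlr13 stood at 5.54, 5.24 and 4.31 per 1000 in flox vehicle and 9.502, 9.65 and 10.98 in KO vehicle. It was higher in every KO library, by 1.00 on the log2 scale, which 0.39% of all genes were without overlap (two-sided exact permutation p = 0.1, the smallest that 3 against 3 mice can give). The 18 markers differed among themselves, with log2 fold changes of 0.14 to 4.22 (median 2.43), a range that includes the 3.81 of Tlr13. The ratio, here and below, therefore depends on the markers that weigh most in the sum. Tlr7 was 3.35 to 4.52 in flox vehicle and 3.99 to 4.91 in KO vehicle, higher in mean by 0.19 on the log2 scale but with overlap. Tlr3 was 10.4 to 14.5 in flox vehicle and 1.66 to 3.19 in KO vehicle, and Tlr9 was 1.53 to 2.20 and 0.224 to 0.430.

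Under MTX, Tlr8 and Tlr13 per macrophage marker were higher in KO than in flox mice without overlap, by 0.56 and 0.73 on the log2 scale (0.69% of all genes were). Tlr3, Tlr4, Tlr5 and Tlr9 were lower without overlap, at -1.70, -1.003, -2.12 and -0.90, as were 60.6% of all genes. The median was -0.41 over the receptors, with 7 of 10 below 0, and -1.67 over all genes. In KO mice, Tlr8 per 1000 was 2.45, 2.54 and 2.08 with vehicle and 4.36, 4.09 and 4.71 with MTX. All 3 libraries with MTX were higher, by 0.90 on the log2 scale. In this comparison the 18 markers had log2 fold changes of 0.16 to 1.44 (median 0.50), and Tlr8 had 1.43. Tlr9 was 0.400, 0.430 and 0.224 with vehicle and 0.610, 0.782 and 0.751 with MTX, higher in every library, by 1.06. Of all genes, 0.604% were higher with MTX without overlap on this measure. Each of the differences without overlap had the exact permutation p of 0.1, which is the smallest possible and cannot pass 0.05.

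**Figure D4:**
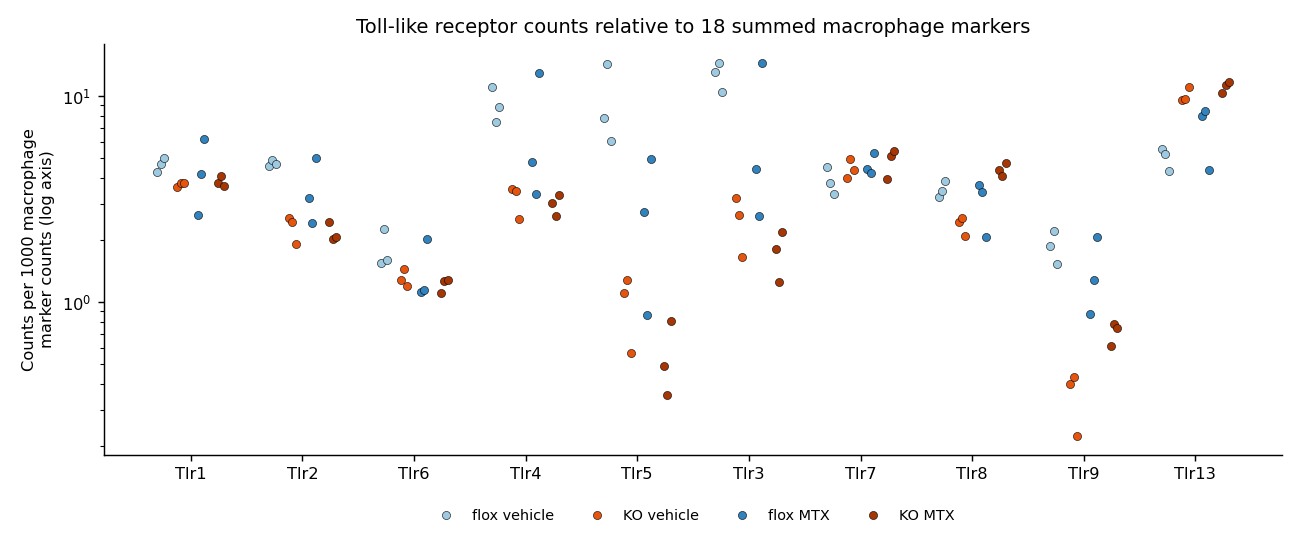
Counts of each receptor per 1000 counts of 18 summed macrophage markers (log axis), with 1 point per library, coloured by group. Tlr13 sits at 4.31 to 5.54 in flox vehicle and 9.502 to 10.98 in KO vehicle, whereas Tlr3 and Tlr9 are lower in KO vehicle than in flox vehicle.

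Tlr9, known as strongly expressed in B cells and plasmacytoid dendritic cells, was read beside their markers. The 8 B cell markers summed to 14.98 to 37.9 CPM in flox vehicle and 17.6 to 58.3 in KO vehicle. They summed to 22.4, 347 and 111 CPM in flox MTX replicates 1, 2 and 4 and to 22.8, 304 and 89.7 CPM in KO MTX replicates 2, 3 and 4. The libraries with the highest sums, flox MTX replicate 2 and KO MTX replicate 3, were also those with the highest Tlr9, at 8.53 and 9.83 CPM. KO MTX replicate 2, with a B cell sum of 22.8 CPM, had Tlr9 at 5.69 CPM, above every vehicle library. The part of B cells and plasmacytoid dendritic cells in the level of Tlr9 was not tested. The plasmacytoid list was highest in the same pair of libraries, at 34.0 and 35.2 CPM against 4.94 to 15.8 in the other 10. Within that list Spib had the highest mean in both MTX groups, at 12.8 ± 12.3 CPM in flox MTX and 12.0 ± 11.7 CPM in KO MTX (SD, n = 3). Its means were 2.30 CPM in flox vehicle and 2.16 CPM in KO vehicle. Siglech had means of 0.63 CPM in flox vehicle, 1.03 in KO vehicle, 1.15 in flox MTX and 0.77 in KO MTX.

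Of the other genes of the pathway, 59 of a list of 60 were tested (co-receptors, chaperones, endosomal enzymes, adaptors, kinases, inhibitors, transcription factors and the remaining mouse receptors Tlr11 and Tlr12). In KO against flox mice given vehicle, 23 were called higher and 2 lower, and 34 were not called, with a median log2 fold change of 0.46, where 13.9% of all genes were called higher and 17.8% lower. Of the co-receptors 4 of 6 were higher, of the endosomal proteases and nucleases 7 of 9, and of folding and delivery factors 3 of 6. Of the kinases and ubiquitin ligases 2 of 15 were higher, near the share of all genes, and 1 lower, of the inhibitors 2 of 8 higher, and of the transcription factors 3 of 7 higher. Tlr11 and Tlr12 were not called.

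Cd180, a receptor homologue of lymphoid and myeloid cells, stood at 6.89, 3.92 and 8.80 CPM in flox vehicle and at 34.5, 45.3 and 80.6 CPM in KO vehicle. It was the most changed co-receptor, without overlap, at a log2 fold change of 3.03 (SE 0.60, adjusted p = 0.00483, edgeR). Slc15a3, a transporter of the endolysosome, followed at 2.90 (SE 0.67, adjusted p = 0.00884, edgeR), with 4.63 to 11.6 CPM in flox vehicle and 44.0 to 78.1 CPM in KO vehicle. Ctss, an endosomal protease that processes receptors, stood at 90.1, 62.8 and 111 CPM in flox vehicle and at 605, 650 and 1107 CPM in KO vehicle. Its libraries were far apart, at 3.16 (SE 0.60, adjusted p = 0.00450, edgeR).

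Among adaptors, Ticam2, the bridge between Tlr4 and Ticam1, was 0.941 to 2.26 CPM in flox vehicle and 4.27 to 8.66 CPM in KO vehicle, a log2 fold change of 2.20 (SE 0.49, adjusted p = 0.00744, edgeR). The shared adaptor Myd88 was not called, at 0.46. Btk, a kinase of B and myeloid cells, differed by 2.35 (SE 0.47, adjusted p = 0.00513, edgeR), Irf5, a transcription factor downstream of Myd88, by 2.25 (SE 0.44, adjusted p = 0.00482, edgeR) and Il1rl1, listed with the inhibitors, by 1.23 (SE 0.41, adjusted p = 0.0421, edgeR). Il1rl1 was the one of these whose libraries overlapped.

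The genes called lower were Sarm1 and Tab3. Sarm1, an adaptor known for restraining Ticam1 and for its part in nerve degeneration, stood at 9.97, 18.9 and 3.04 CPM in flox vehicle and at 0.755, 0.846 and 0.796 CPM in KO vehicle. Its level in the flox vehicle libraries had the same order as their epididymis sums, 7054, 20276 and 2407 CPM, and its log2 fold change was -3.73 (SE 0.60, adjusted p = 0.00316, edgeR). Flox MTX replicate 1, with 699 CPM of epididymis markers, had Sarm1 at 0.850 CPM. The testis germ cell markers were also higher in flox vehicle, at 192 to 568 CPM against at most 11.5 CPM elsewhere. The part of the epididymis and testis transcripts was not tested. Tab3, a partner of the kinase Map3k7, stood at 24.2, 19.2 and 27.5 CPM in flox vehicle and at 15.3, 13.2 and 11.8 CPM in KO vehicle. It fell by 0.82 on the log2 scale (SE 0.21, adjusted p = 0.0144, edgeR), without overlap.

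With MTX in flox mice, 15 of the 59 were called higher and Sarm1 lower, where 8.09% of all genes were called higher. Ctss (2.05, adjusted p = 0.0321, edgeR), Slc15a3 (1.90, adjusted p = 0.0638, edgeR) and Cd14 (1.77, adjusted p = 0.0413, edgeR) were among the higher genes, each with replicate 4 inside or below the vehicle range. Without flox vehicle replicate 3, or with flox vehicle replicates 1 and 3 left out, 1 gene was called. With the pair left out, 2 genes, both lower, were called in KO against flox mice given vehicle. In KO against flox mice given MTX no pathway gene was called (25 with an unadjusted p below 0.05, against 24.5% of all genes, and 17 by DESeq2, against 14.8%; 26 by edgeR without flox MTX replicate 2 and 4 without flox vehicle replicate 3), and in KO mice given MTX or vehicle none was (1 with an unadjusted p below 0.05, against 7.97% of all genes, and 0 by DESeq2).

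**Figure D5:**
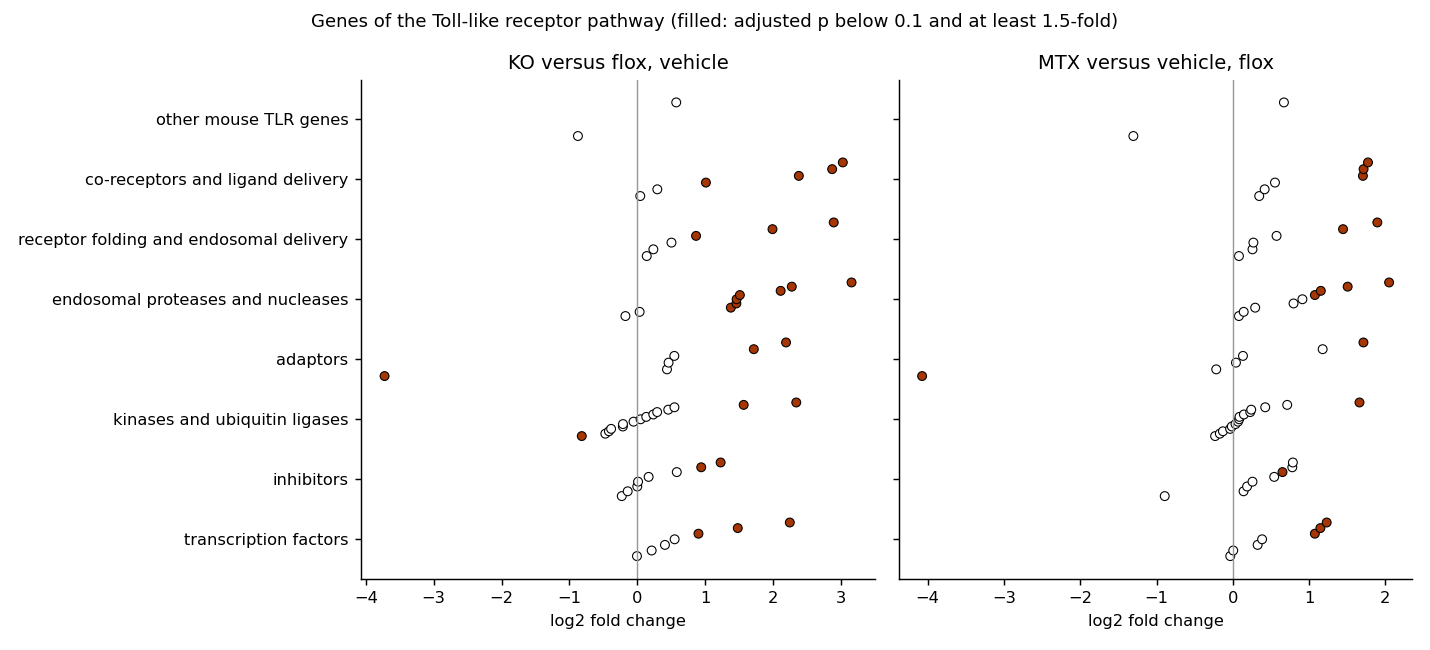
Log2 fold changes of the 59 pathway genes tested, each point a gene, in rows by function, filled where the adjusted p was below 0.1 and the fold change at least 1.5. In KO against flox mice given vehicle 23 filled points lie above 0 and 2 below, and with MTX in flox mice 15 lie above and 1 below.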

How the data were processed

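The authors trimmed reads with Trimmomatic 0.36, aligned them to GRCm38 (mm10) with STAR 2.5.2b and made counts per Ensembl gene (release 79) with featureCounts (Subread 1.5.2), and the counts were deposited without normalization. The strand setting and how multi-mapping reads were handled are not given in the sources used here. The labels give polyA RNA and the methods depletion of ribosomal RNA, and which applies is not known here. The share of counts on genes lacking a symbol is 0.0688%. The tests ran in edgeR 4.0.16 under R 4.3.3 (TMM, filterByExpr by group, 1 coefficient per group over the 12 libraries, 8 residual degrees of freedom, glmQLFit and the quasi-likelihood F-test, Benjamini-Hochberg over 18702 genes), and checked on simulated counts. A call needs at least a 1.5-fold change with an adjusted p under 0.1, a reading of the limits in the methods. CPM are scaled with TMM. Marker sums are CPM of all counts. Log2 levels used a prior count of 2. Replicates are separate mice. No pairing of mice by number is stated, and the methods say that littermates matched by cage were used. The median residual correlation was 0.035 in 12 pairs of like number and 0.011 in 42 others, with 3 of the 12 above 0.1. With 3 mice per group these values cannot exclude pairing. No libraries were duplicates. The receptors, the gene lists and the tests were chosen with earlier results of these data known. Pathway genes named are, per list, the called gene with the largest rise and fall in KO against flox mice given vehicle and any whose sign differs; Cd14 and Myd88 were picked with their values known. The 3 genes most like each receptor are named, except 1 gene that is not reported here. The results were recomputed by DESeq2 1.42.0, with RLE factors, with library size alone, unfiltered, with a minimum of 10 counts per library, with replicate numbers as blocks, on the compared libraries alone, with other fold limits, with 3 macrophage markers, with each library left out and, chosen after seeing the data, flox vehicle replicates 1 and 3 left out. Lists of T cell, conventional dendritic cell, neutrophil, mast cell, endothelial, fibroblast and mesothelium markers were summed too: in KO against flox mice given vehicle 1 of 8, 4 of 6, 1 of 6, 5 of 6, 6 of 8, 7 of 7 and 0 of 5 genes tested were called higher. The share of all genes called higher there was 13.9%.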

Additional observations from a re-analysis of the deposited data

Results flagged for a closer look

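Sarm1 had a response to MTX that differed between genotypes: in KO mice the log2 response exceeded that in flox mice by 4.07 (SE 0.84, adjusted p = 0.0847, edgeR's interaction test over all genes), the only one of 59 pathway genes called, where 0.989% of all genes were. Its level was 3.04 to 18.9 CPM in flox vehicle and 0.375 to 1.08 CPM in the other 9 libraries. The flox vehicle libraries also held the epididymis and the testis germ cell transcripts. Flox MTX replicate 1, with 699 CPM of epididymis markers, had Sarm1 at 0.850 CPM. In the interaction 7 of 8 testis germ cell and 0 of 9 epididymis markers tested were called. The part of either set of transcripts was not tested. Sarm1 was not called without 10 of the 12 libraries in turn, nor with replicate numbers as blocks or at least 10 counts in every library.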

How the results depend on the processing

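Leaving out flox vehicle replicates 1 and 3 gave 0 receptors in KO against flox mice given vehicle and in MTX against vehicle in flox mice, and 2, 1 and 0 pathway genes in these comparisons and the interaction. In KO against flox mice given MTX, DESeq2 called 6 receptors and 17 pathway genes, no filter 2 and 6, and at least 10 counts in every library 4 and 9. For MTX in flox mice, the replicate block called 3 receptors and 5 pathway genes, the compared libraries alone 2 and 1, and a log2 limit of 1.5 gave 4 and 9, as against 15 pathway genes in KO against flox mice given vehicle. In KO mice DESeq2 called 1 receptor. The interaction had 0 pathway genes with the replicate block or at least 10 counts in every library. The block also lost Tlr8 in KO against flox mice given vehicle (6 receptors), and no pairing of mice by number is stated. Leaving out 1 library gave 7 receptors in each case for KO against flox under vehicle (21 to 27 pathway genes), 0 to 8 under MTX (0 to 26), 3 to 8 for MTX in flox mice (1 to 22), 0 in KO mice and 0 to 1 for the interaction (0 to 1). Receptors without overlap then numbered 5 to 8 under MTX and 3 to 8 in KO mice, and 1 for MTX in flox mice with library size alone. Per macrophage marker, the median was -0.73 with 3 markers in KO against flox mice given MTX, and -0.71 to -0.24 for MTX in flox mice and -0.60 to -0.13 for KO against flox under MTX with 1 library left out. Signs turned for Tlr3 in KO against flox under MTX (0.12 with library size alone, 0.012 with the block) and in the interaction for Tlr5 (0.15 and 0.025; -0.21 to 0.27 without 1 library), Tlr8 (0.021 with the block, 0.17 without flox vehicle replicates 1 and 3; -0.90 to 0.28) and Tlr9 (-0.054 to 1.006). The cause was not tested. Of the log2 fold changes of single receptors, 914 kept direction and side of the limits, 39 lost a call and 23 gained one. Shares of all genes called are not given for the other filters, block, compared libraries, log2 limit or fits without 1 library. Depth of at least 35 counts per library bounds counting error for every receptor; the spread between 3 mice limits the comparisons.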
